A study of Mus musculus with 19 samples.

Results

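The transcripts of 9 intermediate filament genes were followed in muscle cells overexpressing HDAC4 and 5 and in the soleus muscle of obese mice: Des, Vim and Nes of muscle and mesenchymal cells, Krt8, Krt18 and Krt19 of simple epithelium, Gfap of glia, and Lmna and Lmnb1 of the nuclear lamina. They were chosen by gene name, as all array probes that carry the symbol of a member, which gave 15 of the 41174 probes and 9 of the 27793 genes of the array. There are 3 probes each for Lmna and Gfap, a pair each for Vim and Krt8, and a single probe for each of the others. The rule that picks the probes uses gene names alone.

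RNA was measured on 19 single-colour Agilent whole mouse genome arrays. C2C12 cells, a mouse myoblast line, were transfected with plasmids and kept under hygromycin and geneticin (500 µg per ml of each), and 6 samples came from cells with empty plasmids (WT) and 6 from cells with plasmids for human HDAC4 and human HDAC5 (HDAC4&5), all harvested after 48 h at about 80% confluency. Whether each stable line is a single clone is not given in the sources used here. Soleus muscle came from 3 heterozygous controls (Con, C57BL6J db -/+) and 4 obese littermates (db, C57BL6J db +/+), all male, 12 weeks old and fasted for 5 h. The db allele is a mutation of the leptin receptor that acts in the whole animal, so the muscle is studied in an obese and diabetic body. Nothing in the labels says that the 6 samples of a C2C12 group came from separate transfections, so p-values between them measure the spread between these samples, which may be technical. The methods describe fewer biological replicates in a group than there are C2C12 arrays, so arrays may share a culture, and p-values over all arrays of a group would then be too small.

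Intermediate filaments are rope-like polymers built from a large gene family, and each cell type uses its own members. Desmin, the product of Des, is the main filament protein of muscle, where it ties neighbouring Z-discs to each other and to nuclei and mitochondria. Vimentin and nestin (Vim and Nes) are used by dividing myoblasts and are known to give way to desmin as fibres mature, with nestin kept at the neuromuscular junction. Keratins polymerise only as pairs of an acidic and a basic partner, and Krt8 with Krt18 or Krt19 is the pair of simple epithelium, with Krt8 and Krt19 also known at the costameres of muscle. Lamins A and C from Lmna and lamin B1 from Lmnb1 line the inside of the nuclear envelope in most cells. HDAC4 and HDAC5 are class IIa histone deacetylases that bind MEF2 factors, which drive muscle genes, and hold their targets silent.

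The probes of the genes with the largest differences, and of the keratin partners whose probes share sequence, are shown first because every value below rests on how much RNA bound to them. All are 60 bases long and have a GC content of 55%. Positions are those of the array design on mm9. The Des probe maps to chr1:75363404-75363629 on the plus strand, a stretch of 226 bases for 60 bases of probe, so it is split by a gap in the genome. The Krt19 probe lies at chr11:100002392-100002451 (minus strand), the Krt8 probe A_51_P242399 at chr15:101827346-101827405 (minus strand) and the Krt18 probe at chr15:101862341-101862400 (plus strand). Capitals mark the longest run common to the Krt8 and Krt18 probes, 11 bases, and in their best ungapped alignment 23 of 50 bases were identical (46.0%).
Des: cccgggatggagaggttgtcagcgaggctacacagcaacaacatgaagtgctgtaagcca
Krt19: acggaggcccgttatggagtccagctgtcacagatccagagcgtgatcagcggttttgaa
Krt8: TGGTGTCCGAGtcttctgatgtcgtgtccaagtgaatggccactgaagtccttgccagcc
Krt18: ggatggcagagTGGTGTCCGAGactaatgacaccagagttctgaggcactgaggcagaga

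The other probes lie on mm9 at chr15:101827214-101827273 (Krt8, A_51_P242400), chr3:87784308-87784367 (Nes), chr2:13504232-13504291 and chr2:13498766-13498825 (Vim, A_51_P392687 and A_52_P287532), chr3:88288067-88288586, chr3:88287132-88287191 and chr3:88287262-88287321 (Lmna, A_51_P313561, A_51_P313566 and A_52_P137765), and on chromosome 11 for Gfap. Nes and Lmna thus both lie on chromosome 3, and Krt8 and Krt18 both on chromosome 15. Exons and untranslated regions of mm9 were not used here.

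The stretches before the start sites of Des and Nes, which fell in HDAC4&5 cells, and of Krt8, which rose, are given from RefSeq (GRCm38.p6), 250 bases each in the direction of transcription. Capitals mark the E-box CANNTG, the letters bound by MyoD and its relatives, which read the same pattern on both strands. The windows lie at chr1:75360042-75360291 (plus strand), chr3:87970843-87971092 (plus strand) and chr15:102004343-102004592 (minus strand).
Des: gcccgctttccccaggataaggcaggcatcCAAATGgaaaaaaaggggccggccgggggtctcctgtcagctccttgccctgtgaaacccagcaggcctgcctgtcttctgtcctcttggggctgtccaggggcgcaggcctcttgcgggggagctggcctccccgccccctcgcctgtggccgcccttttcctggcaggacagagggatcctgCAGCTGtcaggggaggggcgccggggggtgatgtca
Nes: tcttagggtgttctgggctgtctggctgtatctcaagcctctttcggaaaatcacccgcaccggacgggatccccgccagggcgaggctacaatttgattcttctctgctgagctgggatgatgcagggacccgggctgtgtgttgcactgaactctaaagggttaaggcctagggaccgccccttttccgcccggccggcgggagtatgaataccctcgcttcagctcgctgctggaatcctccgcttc
Krt8: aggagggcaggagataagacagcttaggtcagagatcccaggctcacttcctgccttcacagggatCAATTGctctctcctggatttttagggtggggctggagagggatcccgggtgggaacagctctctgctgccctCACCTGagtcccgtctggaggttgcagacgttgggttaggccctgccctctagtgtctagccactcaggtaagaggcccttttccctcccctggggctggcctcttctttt

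Des and Krt8 each had 2 E-boxes in these windows, Krt18 had 1, and Nes, Vim, Gfap and both Lmna entries had 0. Of 32851 mouse promoters of the same length, 66.2% held an E-box, so its presence sets no member apart. A GC box, GGGCGG on either strand, was found 2 times in Des, 2 times in Nes and 1 time in 1 Lmna entry, against 32.7% of all promoters. Neither the MEF2 site, found in 2.92% of promoters, nor the CArG box, the letters of serum response factor, found in 1.47%, matched in any member's window. Such a match is a run of letters in a short window and no evidence of binding. The table of promoters used here has no entry for Krt19, and that of Lmnb1 is not shown.

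Levels are given as log2 of a probe's processed intensity over the 75th percentile of its array, so 0 is the 75th percentile itself and each unit is a doubling. They can be compared between arrays for a probe, but not between probes. A probe is called well above background where the scanner software flagged it so, and saturated where its spots reached the top of the scanner's range, in which case the true level is higher than the value given. The 75th percentile was between 494 and 1691 intensity units on the C2C12 arrays and between 153 and 686 on the soleus arrays. Between 46.8% and 57.5% of spots were well above background. Replicates correlated over all probes at r of 0.978 to 0.993 in C2C12 cells, 0.954 to 0.980 in control soleus and 0.915 to 0.976 in db soleus. The soleus arrays lay on different slides, and the 3 arrays of slide 5 had a 75th percentile of 555 to 686 against 153 to 232 for the 4 arrays of slide 4, so soleus results are also given within slides. As a check of the labels, mouse Hdac5 was higher in HDAC4&5 than in WT cells (2.19 in WT and 3.60 in HDAC4&5 cells, log2 difference 1.42, standard error 0.27, adjusted p = 0.00039 from limma), and Hdac4 was not (log2 difference -0.05, adjusted p = 0.365 from limma). The plasmids carry human genes, and whether these mouse probes detect them was not tested.

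**Figure D1:**
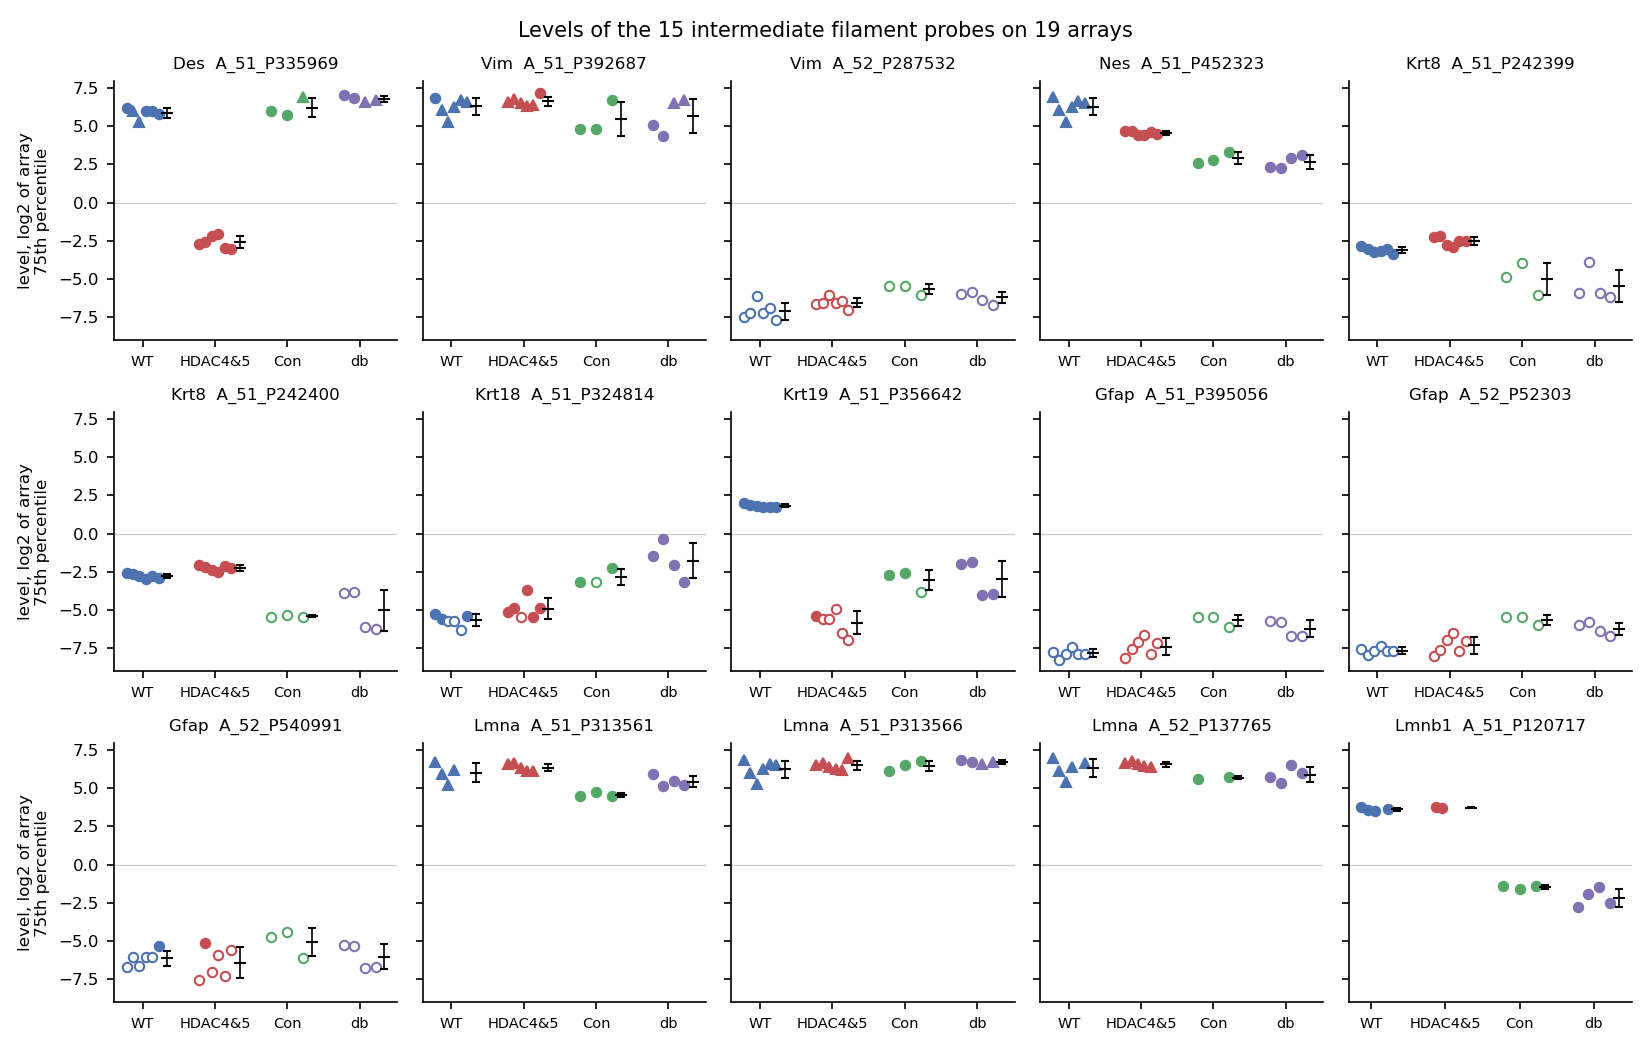
Level of each of the 15 probes (log2 of the 75th percentile of the array, y axis) on every array of the WT, HDAC4&5, Con and db groups, with triangles for saturated probes, hollow points for probes not well above background, and bars for the group mean ± SD. Des and Krt19 drop from the WT to the HDAC4&5 arrays with no overlap, and Gfap and A_52_P287532 of Vim stay near background.

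The muscle filament genes Des and Nes and the keratin gene Krt19 fell in HDAC4&5 cells, whereas both probes of Krt8 rose by a small amount. Des was 350-fold lower on the scale of the processed signal, Nes at least 3.28-fold lower, and Krt19 fell to near background. The size of the fall depends on the background correction for both Des and Krt19. In all, 10 of the 15 member probes passed the filter, which asks for signal well above background on all arrays of 1 of the groups compared or more, and of these 2 were called higher and 3 lower at an adjusted p of 0.05. This is 50% of the probes tested, beside 68.3% of all 21483 probes tested, with 36.5% called higher and 31.8% called lower. The share of members called was thus no larger than that of the array. Their median log2 difference was 0.26, beside 0.05 over all probes tested. Both values include A_51_P392687 of Vim and the 3 Lmna probes. These were saturated on most or all arrays of both groups, so no difference can be given for them. The median lies between the values of 2 of these Lmna probes (0.25 and 0.27). Neither the share nor the median therefore describes the members that could be measured.

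Des carries 10 spots on each array. On the WT arrays 1 to 6 it read 6.21, 6.01, 5.27, 5.96, 5.96 and 5.80. On the HDAC4&5 arrays it read -2.71, -2.55, -2.19, -2.08, -2.95 and -3.03. All WT arrays were high and all HDAC4&5 arrays low, with nothing in between. In intensity units this was 38965 to 65214 on the WT arrays and 60.4 to 202 on the HDAC4&5 arrays, all of them still well above background. The log2 difference was -8.45 (limma, standard error 0.19, adjusted p = 3.68e-13), and the exact permutation test over arrays, two-sided, gave p = 0.00216, the smallest that 6 against 6 arrays allow. All 10 spots were saturated on WT array 3 and 6 of them on WT array 2, and saturation can only understate the fall. Without these arrays the difference was -8.57. Within slides 1, 2 and 3, which each hold 2 arrays of both groups, it was -8.74, -7.75 and -8.87. The HDAC4&5 values are dim, so the size also depends on the background correction. With normexp correction, which draws dim values towards a floor, the gap between WT and HDAC4&5 cells was smaller, 7.67.

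The spread between the 10 spots of Des on an array was small beside the fall, with a median SD of 0.076 log2 units on WT and 0.078 on HDAC4&5 arrays. In soleus muscle that SD was 0.082 on control and 0.19 on db arrays.

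**Figure D2:**
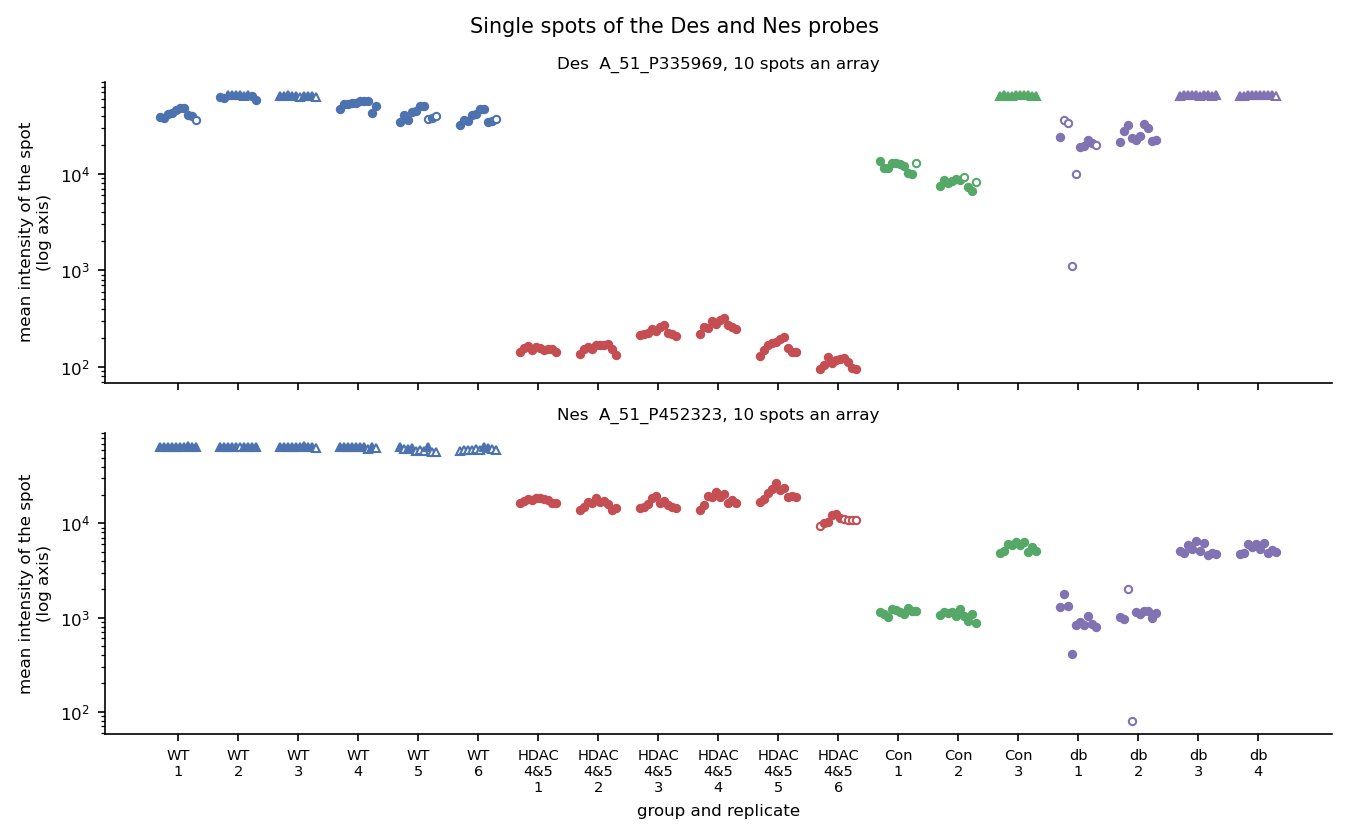
Mean intensity of every single spot (log axis) of the Des and Nes probes, 10 spots for each array, by group and replicate, with triangles for saturated and hollow points for outlier-flagged spots. The HDAC4&5 spots of Des lie far below all WT spots, and the WT spots of Nes sit at the top of the scanner's range.

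Nes, which co-assembles with vimentin and desmin, also carries 10 spots. It read 6.87, 6.07, 5.27, 6.26, 6.65 and 6.51 on the WT arrays. On the HDAC4&5 arrays it read 4.69, 4.69, 4.42, 4.42, 4.63 and 4.51, all below the lowest WT value. Nes was saturated on all 6 WT arrays and on none of the HDAC4&5 arrays, so WT values are lower limits and their order means nothing. The difference of -1.71 on the log2 scale (limma, standard error 0.22, adjusted p = 1.09e-05, exact permutation p = 0.00216) is therefore a bound, at least 3.28-fold lower. Within slides 1, 2 and 3 the measured difference was -1.78, -1.34 and -2.01.

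Vim, the general mesenchymal filament, was at or near the top of the scanner range in both cell groups. The probe A_51_P392687 read 5.25 to 6.84 with a median of 6.43 on the WT arrays and 6.34 to 7.14 with a median of 6.54 on the HDAC4&5 arrays, and was saturated on 5 of 6 arrays of each group. No difference can be given for it. The other Vim probe, A_52_P287532, was not well above background on any of the 19 arrays, so the pair of Vim probes disagree and the gene is described by the first.

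The keratins did not move as a group. Krt19 read 2.00, 1.90, 1.83, 1.77, 1.75 and 1.71 on the WT arrays. On the HDAC4&5 arrays it read -5.39, -5.55, -5.57, -4.94, -6.49 and -6.97, and was well above background on 1 of these 6. The groups did not overlap. The measured log2 difference, against values mostly at background, was -7.65 (limma, standard error 0.28, adjusted p = 4.77e-11, exact permutation p = 0.00216), and it was -7.43, -7.06 and -8.46 within slides 1, 2 and 3. With each undetected array set to its dimmest detected signal where that was higher, Krt19 was at least 136-fold lower on the scale of the processed signal. With normexp background correction, which draws dim values towards a floor, it was -4.54 (adjusted p = 7.83e-08 from limma), so the size of this fall rests on how values near background are treated, and its direction does not.

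Krt8, the basic partner of Krt18 and Krt19, was dim but well above background on all 12 C2C12 arrays with both probes. The probe A_51_P242399 read -2.82, -3.0, -3.24, -3.14, -3.02 and -3.34 on the WT arrays. On the HDAC4&5 arrays it read -2.26, -2.19, -2.74, -2.93, -2.48 and -2.49, and the groups overlapped by a single HDAC4&5 array, array 4. The difference was 0.58 (limma, standard error 0.13, adjusted p = 0.00134, exact permutation p = 0.00433), a 1.5-fold rise.

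The second Krt8 probe, A_51_P242400, read -2.60, -2.67, -2.80, -2.95, -2.79 and -2.92 on the WT arrays. It read -2.04, -2.15, -2.40, -2.53, -2.10 and -2.23 on the HDAC4&5 arrays, with no overlap. The difference was 0.54 (limma, standard error 0.09, adjusted p = 0.000158, exact permutation p = 0.00216), a 1.46-fold rise, so the 2 probes gave like sizes. Within slides 1, 2 and 3 it was 0.54, 0.41 and 0.69 for this probe and 0.69, 0.36 and 0.70 for the other. In the matrix of values that the authors deposited, the 2 differences were 0.40 and 0.36 and missed the threshold (adjusted p = 0.085 and 0.084 from limma).

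Krt18 lay at the edge of background in C2C12 cells, well above it on 3 of 6 WT and 5 of 6 HDAC4&5 arrays, and did not pass the filter. It read -5.22, -5.56, -5.69, -5.71, -6.28 and -5.35 on the WT arrays and -5.12, -4.85, -5.42, -3.65, -5.47 and -4.84 on the HDAC4&5 arrays. The groups overlapped, and the exact permutation test gave p = 0.0173, and p = 0.0671 with normexp correction. The 3 Gfap probes were not well above background, apart from A_52_P540991 on 1 WT and 1 HDAC4&5 array, and no test was made.

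Lmna was saturated with all 3 probes on every C2C12 array that measured it, so no difference between the cell groups can be given. Lmnb1, a gene of chromosome 18, was outlier-flagged on 2 WT and 4 HDAC4&5 arrays. On the others it read 3.77, 3.58, 3.48 and 3.60 in WT and 3.73 and 3.68 in HDAC4&5 cells, with a difference of 0.10 (limma, standard error 0.10, adjusted p = 0.431). The sign of this difference turned under quantile normalization, where it was -0.016.

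Lists of muscle markers also had lower summed levels in HDAC4&5 than in WT cells, while lists of other cell types did not share a direction. Of 6 genes of myoblasts and early muscle, 4 were well above background on each WT array and 1 to 2 on each HDAC4&5 array, and their summed level fell from 61.5 to 122 times the 75th percentile on WT arrays to 1.22 to 1.40 times on HDAC4&5 arrays. Myod1 and Mef2c, which drive muscle genes, were well above background on 6 of 6 WT and 0 of 6 HDAC4&5 arrays, and Myf5 and Pax7 on none of either. Of 8 slow fibre genes all were well above background on WT arrays and 4 to 5 on HDAC4&5 arrays, with summed levels of 27.4 to 31.3 and 2.03 to 2.67. Some other lists had higher summed levels in HDAC4&5 cells, though of the 5 Schwann cell genes tested limma called 2 higher and 2 lower. Schwann cell markers, of the cells of nerve that use Gfap, summed to 11.3 to 13.4 on WT and 28.8 to 33.6 on HDAC4&5 arrays, and proliferation genes to 157 to 218 and 224 to 257, while the sums of fibroblast markers overlapped (76.1 to 141 and 94.2 to 110). The part of these lists in the differences of the members was not tested. In bulk samples such as these, fewer cells of a type and less RNA per cell cannot be told apart.

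Of 12 epithelial markers, 1 to 2 were well above background on WT arrays and 1 to 3 on HDAC4&5 arrays, with summed levels of 0.114 to 0.187 and 0.173 to 0.427. Cdh1, which encodes E-cadherin, the defining adhesion protein of epithelium, was not well above background on any of the 19 arrays, nor were Cdh3, Cldn4, Ocln and Ovol1. Grhl2, an epithelial transcription factor, was well above background on 6 of 6 HDAC4&5 arrays and on none of the other groups, and at least 5.07-fold higher than in WT cells. Cldn3, of the same list, went the other way, well above background on 6 of 6 WT and 3 of 6 HDAC4&5 arrays. Only 2 epithelial markers passed the filter, and limma called 1 higher and 1 lower. Msln, a mesothelial marker, was well above background on all 12 C2C12 arrays and the other 4 mesothelial markers on none of them, and the summed level of the 5 was 27.1 to 32.9 on WT and 8.45 to 10.7 on HDAC4&5 arrays. The part of these markers in the differences of the keratins was not tested.

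The genes that build, link and chaperone intermediate filaments were called at shares near or somewhat above the background of 68.3%. Of 36 other intermediate filament genes 15 were tested, and 4 rose and 9 fell (86.7%, median log2 difference -0.78). Krt14, an epidermal keratin, fell by 4.62. Sync (syncoilin) and Synm (synemin), which bind desmin in muscle, fell by 4.43 and 3.69, and Synm was still well above background on 1 of 6 HDAC4&5 arrays. Bfsp2, a filament protein of the lens, was not well above background in WT cells and was at least 6.96-fold higher in HDAC4&5 cells. Krt16 rose by 1.24 and Nefl, the light neurofilament, by 0.75. All these passed an adjusted p of 0.05 from limma.

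Of 25 linkers and chaperones 22 were tested, and 7 rose and 10 fell (77.3%, median -0.20). Neb (nebulin), which sets the length of thin filaments and binds desmin, was not well above background in HDAC4&5 cells and at least 34.5-fold lower. Jup (plakoglobin), which joins filaments to cell junctions, fell by 6.04 and was well above background on 1 of 6 HDAC4&5 arrays. Cryab, the small heat shock protein that protects desmin, fell by 4.63. In the other direction Ppl (periplakin), a plakin that binds vimentin and keratins, rose by 6.67 (102-fold), and the desmosomal plaque genes Pkp2 and Pkp3 rose by 1.77 and 1.63.

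Of 23 genes of the nuclear lamina and of the LINC complex, which links it to the cytoskeleton, all were tested, and 5 rose and 12 fell (73.9%, median -0.16). Narf, which binds prelamin A, fell by 1.70. Syne3 (nesprin-3), which joins the nucleus to intermediate filaments through plectin, fell by 1.48, and Nrm (nurim) fell by 1.31. Tor1aip1 rose by 1.23, Lbr, the lamin B receptor, by 1.11 and Fntb, a subunit of the farnesyltransferase that modifies lamins, by 0.68. Lmnb2 belongs to this list and to that of other filament genes, and fell by 0.78.

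**Figure D3:**
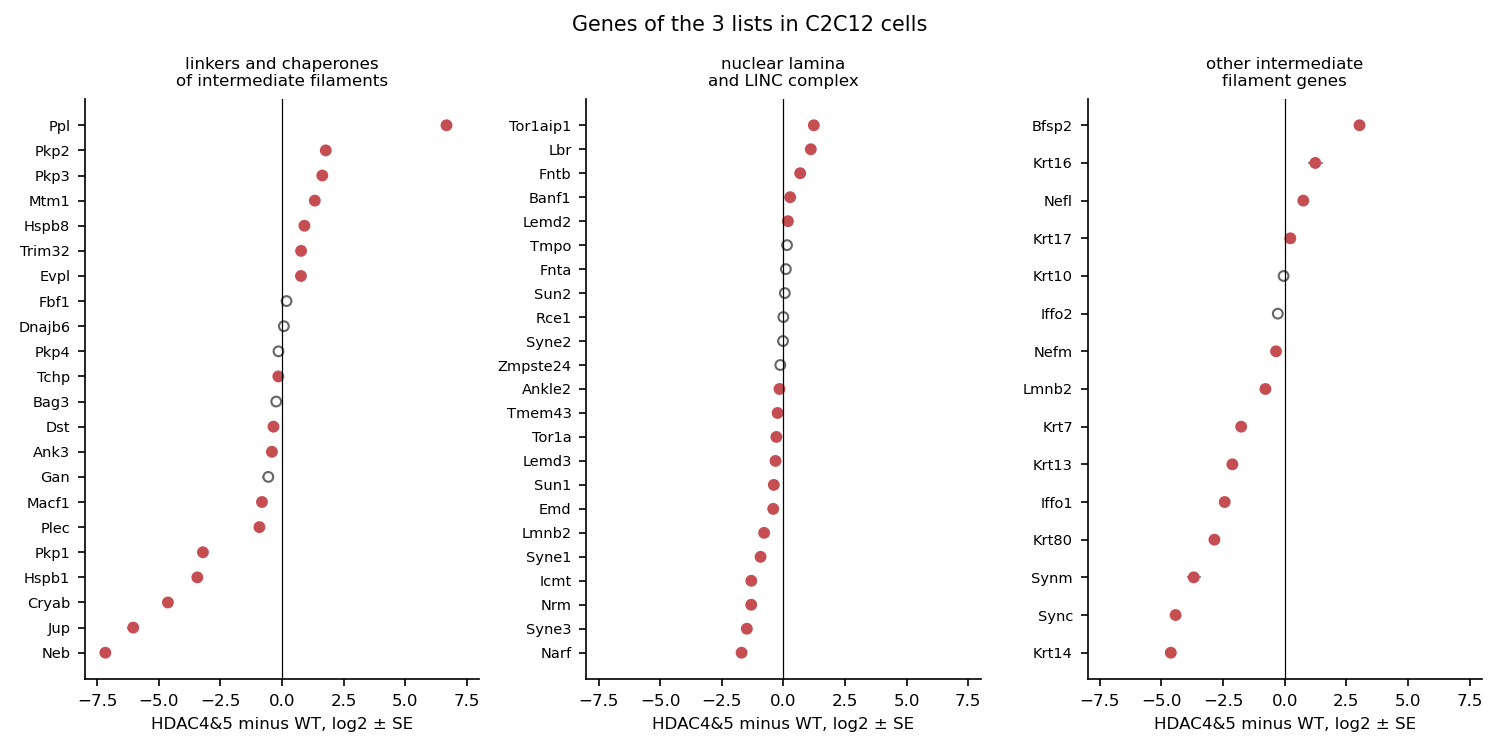
Log2 difference of HDAC4&5 minus WT cells (x axis, point and SE) for the tested genes of 3 lists: linkers and chaperones, nuclear lamina and LINC complex, and other intermediate filament genes. Filled points passed an adjusted p of 0.05 from limma; Ppl lies farthest to the right, and the points of Neb and Jup are measured differences from HDAC4&5 arrays at or near background, so their order carries no meaning.

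In soleus muscle no member passed the adjusted p in the comparison of db with control mice. Of the 15 probes 9 were tested and 0 were called by limma, beside 0.00539% of all 18542 probes tested, which is 1 probe. At an unadjusted p under 0.05 from limma there was 1 member probe, beside 1192 of all probes (6.43%). The methods' t-test also called 0 members. The median log2 difference of the members was 0.22, beside 0.02 over all probes. That median is the value of A_51_P392687 of Vim, which differed by -0.09 on slide 4 and -0.10 on slide 5. It therefore gives no direction for the members.

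Des, the chief filament gene of adult fibres, read 5.99, 5.72 and 6.89 in control and 7.00, 6.84, 6.58 and 6.68 in db soleus. It was saturated on control array 3 and on db arrays 3 and 4, which are the arrays of slide 5. The difference was 0.57 (limma, standard error 0.35, adjusted p = 0.868). On slide 4, where no spot was saturated, the 2 db arrays lay above the 2 control arrays by 1.06, and on slide 5 the difference was -0.26 between saturated values. With slide as a block it was 0.53 (adjusted p = 0.386 from limma).

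Of the 3 Lmna probes, A_51_P313561 read 4.48, 4.72 and 4.5 in control and 5.91, 5.15, 5.48 and 5.18 in db soleus, so all db arrays lay above all control arrays. The difference was 0.86 (standard error 0.30, unadjusted p = 0.0215, adjusted p = 0.679 from limma), and the exact permutation test gave p = 0.0286, the smallest that 3 against 4 arrays allow. It was 0.93 on slide 4 and 0.83 on slide 5, and 0.89 with slide as a block (adjusted p = 0.162 from limma). The other Lmna probes differed by 0.25 and 0.21 with overlapping groups, and A_51_P313566 was saturated on db arrays 3 and 4. The Lmna probes thus disagree, and no call was made. For scale, 6.43% of all probes had an unadjusted p under 0.05.

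Krt18 read -3.13, -3.16 and -2.24 in control and -1.47, -0.38, -2.04 and -3.15 in db soleus. The difference was 1.08 (limma, standard error 0.62, adjusted p = 0.859), with 2.22 on slide 4 and -0.36 on slide 5. Krt19 read -2.72, -2.55 and -3.81 in control and -2.01, -1.85, -4.01 and -3.95 in db soleus, a difference of 0.07 whose sign turned when single arrays were left out. Krt8 was not well above background on any soleus array. Nes read 2.60, 2.76 and 3.33 in control and 2.33, 2.23, 2.93 and 3.11 in db soleus, with a difference of -0.25 (adjusted p = 0.946 from limma).

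Vim read 4.81, 4.81 and 6.72 in control and 5.06, 4.37, 6.51 and 6.71 in db soleus. These values split by slide and not by genotype, with means of 4.81 in control and 4.72 in db on slide 4, and 6.72 and 6.61 on slide 5, where both db arrays were saturated. Krt19 split the other way, with -2.64 and -1.93 on slide 4 and -3.81 and -3.98 on slide 5. Lmnb1 read -1.43, -1.61 and -1.37 in control and -2.78, -1.95, -1.46 and -2.54 in db soleus, a difference of -0.71 (limma, standard error 0.38, adjusted p = 0.824), with -0.84 on slide 4 and -0.63 on slide 5. Of the genes in the 3 lists, 0 of 9, 0 of 18 and 0 of 21 tested were called in soleus by limma, with Pkp2, Syne2 and Sync at an unadjusted p under 0.05.

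**Figure D4:**
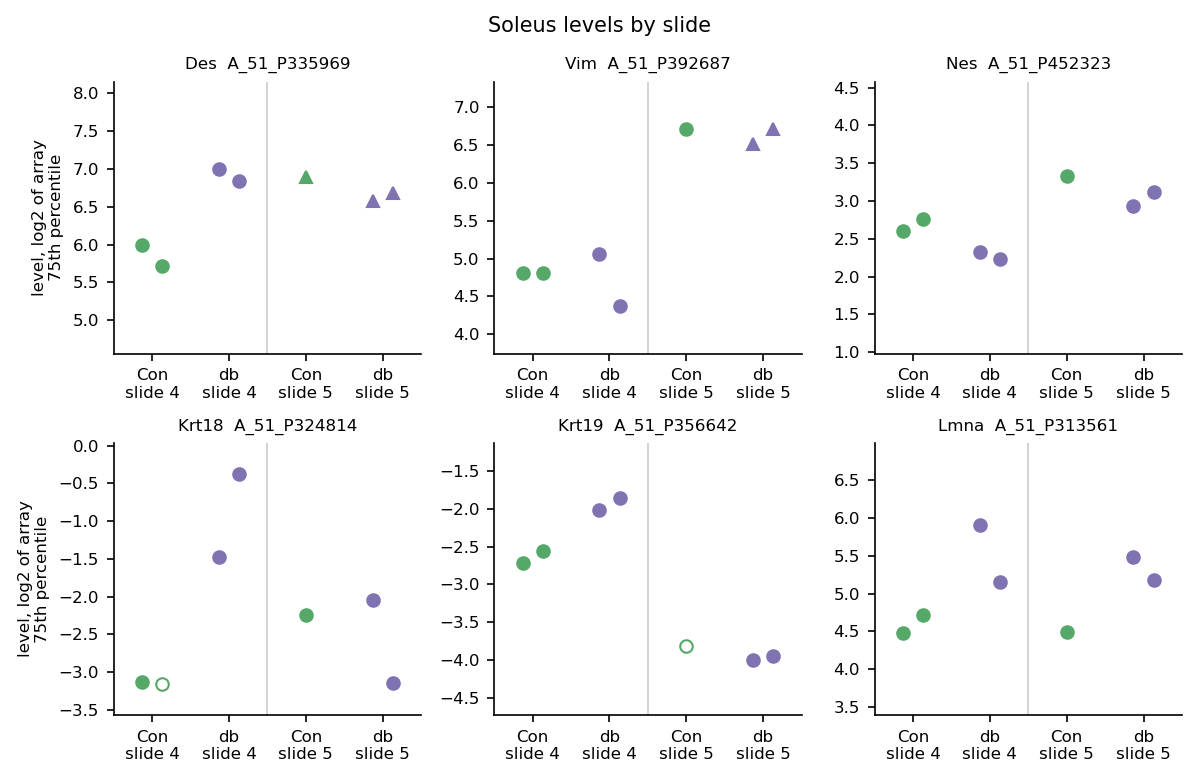
Levels in soleus muscle of 6 member probes (log2 of the 75th percentile of the array, y axis), with control and db arrays set apart by slide, triangles for saturated probes and hollow points for probes not well above background. Vim and Krt19 separate by slide, while A_51_P313561 of Lmna is higher in db on both slides.

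**Figure D5:**
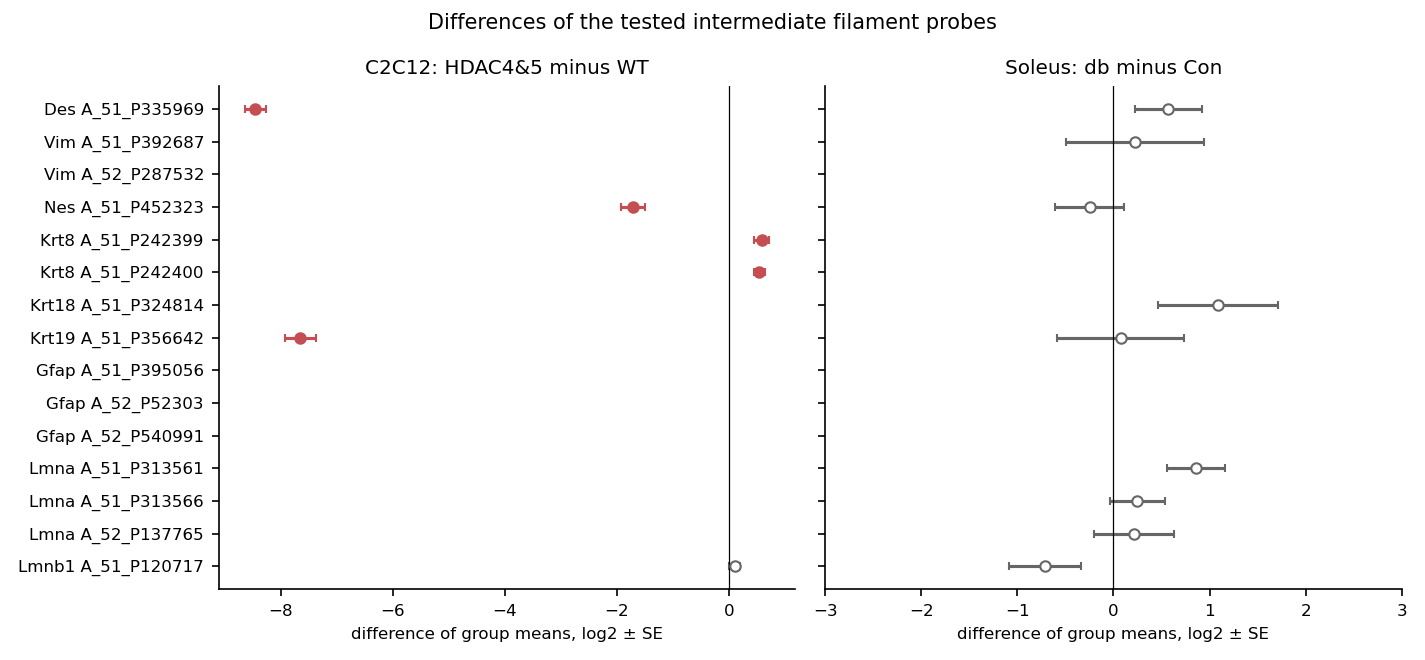
Log2 difference of group means with its SE for the member probes that were tested, HDAC4&5 minus WT cells on the left and db minus control soleus on the right, on different scales. Filled points passed an adjusted p of 0.05 from limma, and in C2C12 cells probes saturated in both groups are left out.

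The summed levels of cell type markers also varied between the muscle pieces. All 8 slow fibre genes were well above background on each soleus array, as the label asks, with summed levels of 1053 to 2581 times the 75th percentile in control and 869 to 2306 in db soleus. Vim and Nes are also made by fibroblasts, endothelium and glia. Fibroblast markers summed to 523 to 598 in control and 317 to 459 in db soleus (7 of 7 well above background on all arrays). Endothelial markers summed to 32.8 to 40.3 and 14.1 to 23.7 (5 of 5 on all arrays). Schwann cell markers summed to 33.1 to 47.7 in control and 34.4 to 98.0 in db soleus, with 6 of 7 well above background in control and 6 to 7 in db. Adipocyte markers summed to 105 to 172 in control and 52.5 to 93.6 in db soleus, a sum set by Cfd (log2 difference -1.91), while the median difference of the 5 genes was 0.72 and none passed the adjusted p. Macrophage markers summed to 4.31 to 13.5 and 6.76 to 18.6. No tested gene of any of these lists passed the adjusted p from limma in db against control soleus, also where the sums did not overlap. The part of these markers in the soleus values was not tested.

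Whether a member responded differently in cells and in muscle was tested in a single fit, as the effect of HDAC4 and 5 in C2C12 cells minus the effect of db in soleus. Des (-9.02, adjusted p = 2.08e-12 from limma), Krt19 (-7.72, adjusted p = 3.69e-08) and Nes (-1.46, adjusted p = 0.00776) passed, all 3 with the lower effect in cells, beside 27.4% of all 23329 probes tested. The value for Nes is a bound because of its saturation in WT cells. For the Krt8 probes the difference of effects was 1.08 and 0.15, and neither passed. A_51_P392687 of Vim, the Krt18 probe, the 3 Lmna probes and the Lmnb1 probe were tested too and did not pass. The share of tested members that passed was thus near that of the array. The fit pooled the spread of the cell arrays with that of the soleus arrays, which vary more, and this limits the test.

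Control soleus was also set against WT cells, to place the 4 groups on a scale. Tissue, slide and RNA extraction cannot be told apart in this comparison, and 74.2% of 22641 probes were called, 34.3% higher and 39.9% lower in soleus. Of the 10 member probes tested 0 were higher and 6 lower in soleus. The 6 were Nes, both probes of Krt8, Krt19, A_51_P313561 of Lmna and Lmnb1. Krt18 did not pass the filter, with signal well above background on 2 of 3 control and 3 of 6 WT arrays. It read higher in control soleus by 2.79 without overlap, and so did A_51_P395056 of Gfap, at background in both groups, by 2.16. Under other scalings the median over all probes moved from -0.16 to between -1.13 and 0.31, so small differences here carry no direction.

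Lmnb1 was lower in control soleus than in WT cells by 5.08 on the log2 scale, 33.7-fold (adjusted p = 1.55e-08 from limma), and Krt19 by 4.86, 28.9-fold (adjusted p = 4.03e-08 from limma, well above background on 2 of 3 control arrays). Both had no overlap between groups. Nes was at least 10.4-fold lower in soleus, and A_51_P313561 of Lmna at least 2.72-fold lower, since both were saturated in WT cells. The other Lmna probes, also saturated in WT cells, read 0.22 (A_51_P313566) and -0.62 (A_52_P137765). Neither was called (adjusted p = 0.539 and 0.181 from limma), so the Lmna probes disagree here too. Krt8 was not well above background in soleus and at least 1.35-fold and 1.67-fold lower, a bound that normexp correction turned to differences of 0.34 and 0.11. Des did not differ beyond its spread (0.33, adjusted p = 0.298 from limma), and the sign turned with quantile normalization (-0.28). All 9 genes of a proliferation list were well above background on each C2C12 array and 5 to 6 on each control soleus array, and all 9 were lower in soleus. Its part in the fall of Lmnb1 was not tested.

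In this comparison 13 of 16 other filament genes tested were called (81.2%), 19 of 21 linkers and chaperones (90.5%) and 19 of 23 lamina genes (82.6%). Of all probes tested 74.2% were called, so most genes of any list would be. Synm was higher in soleus by 6.88 and Neb by 6.99, Krt222 at least 50.2-fold and Bfsp2 at least 46.1-fold. Nefl was at least 37.9-fold and Nefm at least 19.9-fold lower in soleus. Pkp1, a desmosomal plaque gene, was at least 223-fold lower. In the lamina list Syne3 was lower by 5.49 and Lmnb2 at least 5.01-fold lower, and Tor1aip1 was higher by 2.17. The bounds in this paragraph hold on the scale of the processed signal and with the scaling used here.

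Ordered by level, Des was highest in db, then control soleus, then WT cells, and these neighbours did not differ beyond their spread, before the drop to HDAC4&5 cells. Des had saturated spots on 2 db, 1 control and 2 WT arrays. With quantile normalization WT cells lay above control soleus, so the order above the drop carries no meaning. Nes ran from WT through HDAC4&5 cells to control and db soleus, and Krt19 from WT cells through db and control soleus to HDAC4&5 cells. Krt18, at the edge of background in C2C12 cells, is given no order. In exact permutation tests of the 45 neighbouring pairs over the 15 probes, with p-values adjusted by Benjamini-Hochberg, 6 had an adjusted p under 0.05. These were WT above HDAC4&5 for Des and Nes (0.0325 each), HDAC4&5 above WT for both Krt8 probes (0.0357 and 0.0325), and WT above db for A_51_P242400 of Krt8 and for Krt19 (0.0357 each). Krt8 was at background in db soleus, and with normexp correction its gap from WT to db was 0.12 (exact permutation p = 0.719). HDAC4&5 above control for Nes and control above HDAC4&5 for Krt19 did not overlap either and had an adjusted p of 0.0536 each, for Krt19 against HDAC4&5 arrays mostly at background. The same held for WT above control for A_51_P242399 of Krt8, at background in soleus, and for control above HDAC4&5 for Krt18. With normexp correction control and db soleus changed places for Krt19.

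Over the 19 arrays the genes whose levels ran most like Des, of 9770 candidates, were Ociad2 (Pearson r = 0.993) and Lrrn1 (r = 0.992). For Krt19 they were Slc29a2 (0.99) and Sema3b (0.99), and for Krt8 (A_51_P242400) Nde1 (0.99) and Rpain (0.99). These values describe 19 arrays that fall into 4 groups and share slides, so they mostly rest on the group means. They also rest in part on background values, for Krt8 in soleus and for Krt19 in HDAC4&5 cells. Des had saturated spots on 2 WT, 1 control and 2 db arrays. The correlations of Vim, Nes and Lmna rest on saturated values and are not given.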

How the data were processed

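RNA of 12 C2C12 samples and 7 soleus muscles was labelled with Cy3 from 100 ng and hybridised to Agilent-014868 arrays. The authors deposited 1 scanner table of intensity values per array, made with Agilent Feature Extraction 9.5.1.1 per the file headers, with probes placed on mm9, and a matrix whose values are a linear ratio of the processed signal to a constant per array. How the authors chose that constant is not given in the sources used here. The intensity columns were used here as deposited after background subtraction by that software. Of the 19 matrix columns 15 were a constant multiple of an array's scanner values (SD of the log2 ratio under 0.01), and 2 of these matched the file of another db replicate, so it served only as an alternative, with its columns taken by group.

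Outlier-flagged spots were left out and saturated spots kept. Processed signals were averaged per probe on the log2 scale and the log2 of the 75th percentile of each array was subtracted. Probes with signal well above background on all arrays of 1 compared group or more were fitted with limma 3.58.1 in R 4.3.3, with Benjamini-Hochberg adjustment over all probes tested, and exact permutation tests over arrays stand beside it. Where a group was saturated or not well above background on every array, only a bound on the fold is given, taken for dim groups from the dimmest detected probe of each array. Such bounds hold for the processed signal with this scaling, and another background correction can move them, as it did for Krt8. Probes of listed genes were named through RefSeq accessions where these matched (27198 probes), and otherwise as in the files (13976), and a listed gene is represented by its brightest tested probe. The number of arrays limits the precision. The steps were tested on simulated data.

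The members, lists and tests were chosen with earlier results of these data known. All member probes are reported, and of each list up to 3 called genes in each direction with the largest difference, the cell type markers, Hdac4, Hdac5 and the most similar patterns. Sync, Syne2 and Pkp2 in soleus were named after their values were seen. Same-numbered C2C12 replicates share a slide, and the deviations from their group means correlated at 0.228 to 0.584 (soleus 0.371 to 0.661). Same-slide arrays with other numbers correlated about as much, at 0.202 to 0.544 (soleus 0.269 to 0.731). Arrays of different slides correlated at -0.483 to 0.070 (soleus -0.670 to -0.326). The numbers thus show no pairing of samples that can be told apart from the shared slide. Alternatives were other scalings, normexp correction (offset 50), the matrix, other filters, outliers kept, 1 probe per gene, a t-test as in the methods, slide or replicate blocks, and single soleus arrays left out. Leaving out WT arrays 2 and 3 was added after seeing the data.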

Additional observations from a re-analysis of the deposited data

Results flagged for a closer look

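In 44 groups of arrays tested for an array set apart from the rest of its group by Dixon's test, 2 held one, where chance at 1 in 20 gives 2.2. Krt8 (A_51_P242399) read -3.89 on db array 2 against -6.17 to -5.89 on the other db arrays, none of them well above background. Krt18 read -3.65 on HDAC4&5 array 4 against -5.47 to -4.84 on the other HDAC4&5 arrays, on a single spot.

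The effects in C2C12 cells and in soleus muscle differed in limma's test of the difference for Des (-9.02), Krt19 (-7.72) and Nes (-1.46), as effect of HDAC4 and 5 minus effect of db on the log2 scale.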

How the results depend on the processing

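Des, Nes and Krt19 were called lower in HDAC4&5 cells under every alternative that tested them, over -8.76 to -7.67, -2.53 to -1.69 and -7.68 to -4.54 on the log2 scale; the stricter filter left Krt19 untested. The 2 higher member calls in C2C12 cells became 0 with the deposited matrix and 1 with 1 probe per gene, which tests a single Krt8 probe. The cause of the former was not tested. Over all probes, that matrix moved the split from 7834 higher and 6838 lower to 4150 and 6595.

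The replicate block left 2 higher and 3 lower members in C2C12 cells and 0 in soleus, and with slide as a block the counts were the same. Taking the replicate numbers as pairs changed no call on a member. Vim in soleus became -0.13 with the replicate block and -0.10 with the slide block. Over all probes the slide block gave 38 soleus calls (25 higher, 13 lower) and the replicate block 1.

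Lmnb1 in C2C12 cells turned to -0.016 with quantile normalization, -0.24 with the matrix and -0.065 with outliers kept. In soleus, Krt19 turned to -0.16 with normexp and -0.043 with the matrix, and ranged from -0.32 to 0.42 with single arrays left out, below 0 without control 3, db 1 or db 2. Vim turned to -0.52 with the matrix and ranged from -0.13 to 0.86 with single arrays left out, below 0 without control 1, control 2, db 3 or db 4.

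For control soleus against WT cells, the higher member calls went from 0 to 1 with the matrix and 5 without a filter, and ranged from 0 to 1 with control arrays left out (1 without control 2). The lower calls went from 6 to 3 with the stricter filter, which tests fewer probes. Des turned to -0.28 with quantile normalization, -0.64 with the array median, and ranged from -0.012 (without control 3) to 0.57 (without control 2), and the Krt8 probes to 0.34 and 0.11 with normexp. Lmna A_51_P313561 missed the threshold with slide as a random block (-1.45, adjusted p = 0.0628 from limma). The split over all probes moved from 7777 higher and 9026 lower to 4723 and 13615 with the array median, 9831 and 6842 with normexp, and 32617 calls in all without a filter.

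For the difference of effects the higher calls ranged from 0 to 1 with soleus arrays left out (1 each without control 3, db 2 and db 3). Krt8 A_51_P242400 turned to -0.39 with quantile normalization, -0.044 with slide as a random block, and ranged from -0.27 (without db 4) to 0.55 (without db 2), also below 0 without db 3. Krt18 turned to 0.37 with normexp and ranged from -0.81 (without db 4) to 0.12 (without db 2). All probes gave 3805 calls with normexp and 9857 with the random block, against 6398.

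Saturation limits Vim, Lmna and Nes in cells, and signal near background limits Krt18, Gfap and, in soleus, Krt8.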
